A study of Homo sapiens with 2 samples.

Results

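The S100 genes encode small calcium-binding proteins, and most of them lie side by side on the long arm of chromosome 1. RUNX1 binding was examined at 10 of them: S100A2, S100A4, S100A6, S100A7, S100A8, S100A9, S100A10, S100A11, S100A14 and S100A16. A RUNX1 peak was a member when its summit lay in one of these genes or within 20 kb of it, or anywhere in the stretch of chromosome 1 that spans them. This gave 28 of the 13591 peaks in the deposited list. Of the 28, 27 lay in the stretch itself, which runs from 151982915 to 153616325 in GRCh38, and 10 lay within 20 kb of a listed gene. The remaining peak lay just beyond the stretch, inside S100A13.

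The peaks came from 1 RUNX1 ChIPseq library and 1 library of input DNA, both from MCF10A, a non-tumorigenic line of human mammary epithelium. In both, RUNX1 had been deleted and replaced by a lentiviral RUNX1 gene that was switched on with doxycycline (1 µg/ml, 24 hours). Binding was thus measured for RUNX1 made from an added gene and not at its natural level. The paper reports that an earlier ChIPseq of endogenous RUNX1 gave no strong binding. It names low RUNX1 expression or low antibody affinity as possible reasons. The ChIP library held 80338845 kept tags and the input 87410774. There were no replicates, so no test was made and each pileup is given with its exact 95% Poisson interval, which covers counting error only. The peak list holds no expression values, and the identity of the cells was therefore not checked against marker genes.

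S100 proteins act mostly as dimers that bind calcium through EF hands and then attach to a target protein. They are known for roles in epithelial cells, in the skin barrier and in inflammation. RUNX1 binds DNA with its partner CBFB at a short core sequence, TGTGGT or TGCGGT. Between the outer and the inner S100 genes lies the central part of the epidermal differentiation complex, called the epidermal part here. It holds the genes of filaggrin and related S100-fused proteins, the late cornified envelope (LCE) proteins, the small proline-rich (SPRR) proteins, involucrin and loricrin, which build the cornified layer of skin.

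A genome was not used here, but the RefSeq promoter table (GRCh38.p14) gave sequence from 250 bases before to 50 bases after start sites, and 7 of the 28 peaks reached into such a window. Of these, 4 lay wholly within one, at S100A11, S100A8, S100A5 and involucrin (IVL). The windows were searched on both strands for TGTGGT and TGCGGT. They were also searched for TGANTCA, in which N is any base. This is a loose pattern for the core bound by AP-1, a factor pair active in many epithelial genes. An AP-1 core below means a match to this pattern. The TGCGGT and AP-1 searches were added after the peaks had been seen. The sequences below show where these letters stood under the peaks at start sites, with every match in capitals and the rest in lower case. Each is written 5′ to 3′ on the strand of its gene.

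The IVL peak is shown because it held a RUNX core and an AP-1 core beside its summit. All 79 bases of the peak are given (chr1:152908379-152908457, plus strand). TGTGGT and the AP-1 core shared 1 base there.
IVL peak: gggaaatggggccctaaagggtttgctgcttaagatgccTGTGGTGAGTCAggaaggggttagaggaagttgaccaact

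The S100A5 peak held TGTGGT at 2 places, shown as runs of 30 bases (chr1:153541130-153541159 and chr1:153541084-153541113, minus strand).
S100A5 first site: cttgccttcaacTGTGGTcccagctgagtc
S100A5 second site: ggctgaggttttTGTGGTgggagaggaatg

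The S100A12 peak was the tallest among the S100 genes. Of this peak's 345 bases, 190 lay in the promoter window and were searched. The part before the start site is shown (chr1:153375622-153375761, minus strand), which leaves out the summit. The searched bases held the AP-1 match TGAATCA and neither RUNX core, and the rest of the peak was not searched.
S100A12 upstream: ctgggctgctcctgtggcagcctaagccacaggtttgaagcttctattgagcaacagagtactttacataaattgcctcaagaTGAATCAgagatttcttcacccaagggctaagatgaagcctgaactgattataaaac

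The S100A8 peak straddled a start site. Its bases before that start held none of the 3 motifs (chr1:153391189-153391256, minus strand).
S100A8 upstream: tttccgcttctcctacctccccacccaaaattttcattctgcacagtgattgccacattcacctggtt

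For S100A11 the 250 bases before the start are shown (chr1:152037005-152037254, minus strand), because TGTGGT stood beside the peak and not in it. The peak covered the last 78 of these bases, and 33 bases separated it from the motif.
S100A11 upstream: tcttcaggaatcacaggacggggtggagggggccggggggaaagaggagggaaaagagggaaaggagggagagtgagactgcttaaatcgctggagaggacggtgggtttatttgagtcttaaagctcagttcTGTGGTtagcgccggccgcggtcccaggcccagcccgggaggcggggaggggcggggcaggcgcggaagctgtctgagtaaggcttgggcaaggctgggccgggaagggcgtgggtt

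RUNX1 peaks were found near most of the listed genes. A summit lay within 20 kb of 9 of the 10, S100A7 being the exception. By the same rule 35.6% of all protein-coding genes had a peak, as did 25.4% of those with a start site in the table that are shorter than 11 kb, a length that covers all listed genes but S100A8. The share was 44.1% among genes starting between 150 and 160 Mb on chromosome 1. The 9 genes are not independent observations, since neighbours share peaks: the 9 rested on 10 peaks, and 4 of these served a pair of genes each. With 5 kb in place of 20 kb the count was 5 genes against 24.7% of all protein-coding genes. Only S100A8 had a summit in its body, a rule for which no share of all genes is given here. That summit is in the body only by the RefSeq interval, since it lay 10 bases upstream of the nearest start site used here.

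**Figure D1:**
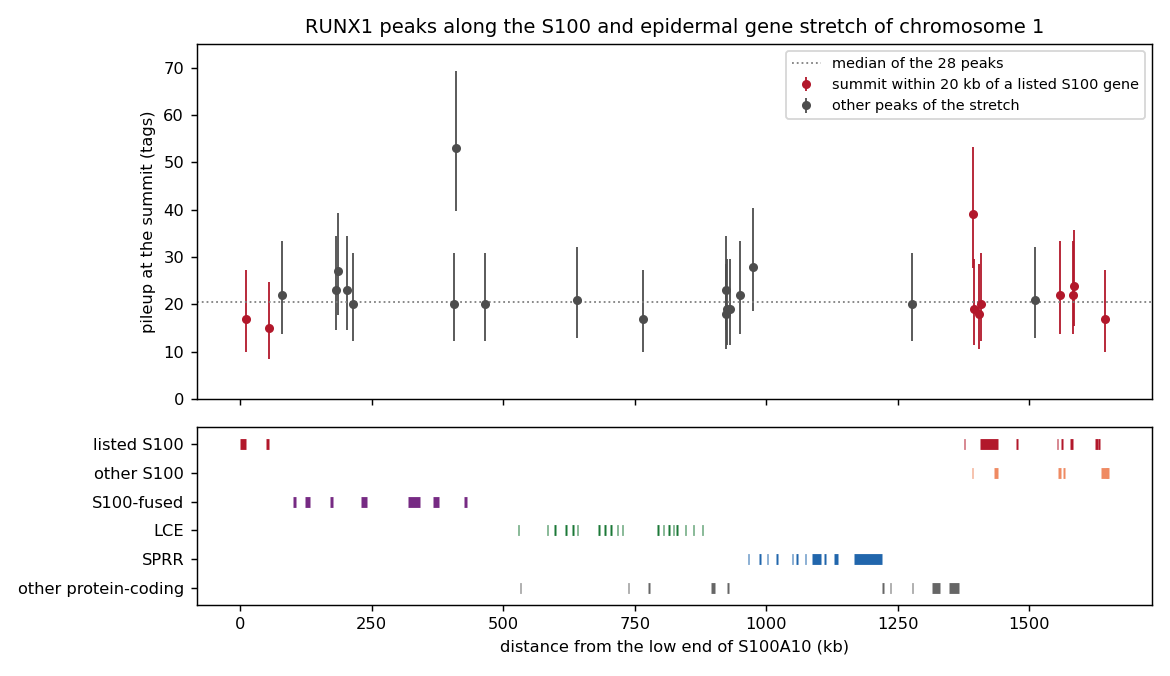
The upper panel plots the pileup of each of the 28 peaks in tags, with its exact 95% Poisson interval, against distance in kb from the low end of S100A10, and the lower panel shows the protein-coding genes as bars (short genes are drawn 3 kb long). Most peaks sit between 15 and 28 tags, and the 2 that rise above are the 53-tag peak near CRNN and the 39-tag peak at S100A12.

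S100A10 and S100A11 stand apart from the other S100 genes, at the low end of the stretch. S100A10 (p11) is the partner of annexin A2 at the cell membrane. Its gene (151982915 to 151993859, minus strand) had 1 peak, at chr1:151994093-151994216, with the summit 306 bases before the start site. The pileup was 17 tags (9.90 to 27.2) and the fold enrichment 4.17. S100A11, which binds annexin A1, had 1 peak at chr1:152037004-152037082, with the summit 72 bases before its start. At 15 tags (8.40 to 24.7) it was the lowest of the 28, with a fold enrichment of 3.42 and a −log10 q of 2.47. In the whole list 92.5% of the peaks had a higher −log10 q. Both peaks were thus weak but close to a start, and their intervals overlapped widely. The next peak after S100A11, with 22 tags (13.8 to 33.3), was 25.2 kb from its start and falls outside the 20 kb rule.

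The next listed genes are S100A9 and S100A8, whose products form calprotectin, a heterodimer of inflamed epithelium and myeloid cells. Between them lies S100A12, another calgranulin. The 4 peaks of this block lay between S100A12 and S100A8, and none lay within 14 kb of S100A9. The tallest was at chr1:153375417-153375761, with its summit 18 bases inside S100A12. It had 39 tags (27.7 to 53.3), a fold enrichment of 8.56, a −log10 q of 22.0 and a width of 345 bp, and only 2.98% of all peaks were taller. Its interval lay above the pileups of the 3 other peaks here, which had 19, 18 and 20 tags, although their own intervals, reaching up to 30.9, overlapped its lower end. The 19-tag peak was 1.64 kb upstream of the S100A12 start, and the 18-tag peak 3352 bases past the far end of S100A8. The 20-tag peak (12.2 to 30.9) had its summit 10 bases before a start site of S100A8. Its fold enrichment was only 3.22. The input level there, a local background recovered from pileup and fold enrichment, stood at 2.50 times the genome background.

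S100A9 itself had 2 peaks within 20 kb, the 39-tag and 19-tag peaks at S100A12, and its nearest summit lay 14.6 kb past the gene and 17.7 kb from its start. The S100A9 promoter window did hold a TGTGGT, on the other strand, starting 103 bases before the start, with no peak there.

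S100A7 encodes psoriasin, an antimicrobial protein of stressed epithelium. It was the only listed gene with no peak within 20 kb. Its nearest summit, 33.0 kb upstream of its start, belonged to the peak at chr1:153493592-153493711 with 21 tags (13 to 32.1). Its near copy S100A7A also had no summit within 20 kb, the nearest being 25.3 kb away. The 250 bases before the 2 genes were the same at 241 positions, or 96.4%, with a longest identical run of 50 bases, shorter than the 54 bp tags. Both are shown because this likeness bears on whether tags could be placed (chr1:153460652-153460901, minus strand, and chr1:153416270-153416519, plus strand), and neither held any of the 3 motifs.
S100A7 upstream: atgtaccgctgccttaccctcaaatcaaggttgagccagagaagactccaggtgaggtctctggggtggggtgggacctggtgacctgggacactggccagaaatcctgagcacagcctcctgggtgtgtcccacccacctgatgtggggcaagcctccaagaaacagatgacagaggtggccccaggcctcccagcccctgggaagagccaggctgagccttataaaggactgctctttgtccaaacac
S100A7A upstream: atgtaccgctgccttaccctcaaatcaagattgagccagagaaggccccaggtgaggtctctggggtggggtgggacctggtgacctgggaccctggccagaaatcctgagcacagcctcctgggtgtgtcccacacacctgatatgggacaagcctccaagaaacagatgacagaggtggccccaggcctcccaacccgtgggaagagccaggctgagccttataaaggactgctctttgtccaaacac
How tags that match more than 1 place were treated is not given in the sources used here, and its part in the absence of peaks at this pair was not tested.

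S100A6 (calcyclin) and S100A4 (metastasin, linked to cell motility) flank S100A5. All 3 genes shared 1 peak, at chr1:153540953-153541169, with 22 tags (13.8 to 33.3), a width of 217 bp, a fold enrichment of 5.86 and a −log10 q of 8.92. Its summit lay inside S100A5, 68 bases before the more internal of the gene's start sites. The summit was 5.01 kb upstream of the S100A6 start, and from S100A4 it was 2.62 kb past the far end. The 2 TGTGGT sites printed above had their centres 97 and 143 bases from the summit. The S100A6 window held none of the 3 motifs, and that of S100A4 held TGCGGT with no peak over it.

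S100A2, a nuclear S100 protein of basal epithelial cells, had a pair of peaks upstream of its start. They lay at chr1:153566680-153566768 and chr1:153567224-153567393, with summits 876 bases and 1.43 kb before the start and 556 bp apart. Their pileups were 22 (13.8 to 33.3) and 24 tags (15.4 to 35.7), with fold enrichments of 4.92 and 5.35. The difference was within counting error.

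S100A16 and S100A14, which are expressed in many epithelia, shared the last peak, at chr1:153627006-153627095. It had 17 tags (9.90 to 27.2) and a fold enrichment of 3.85. Its summit was 13.9 kb upstream of the S100A16 start and 10.7 kb upstream of that of S100A14. It lay nearer to other genes, 182 bases inside a start site of S100A13 and 1.38 kb upstream of S100A1.

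**Figure D2:**
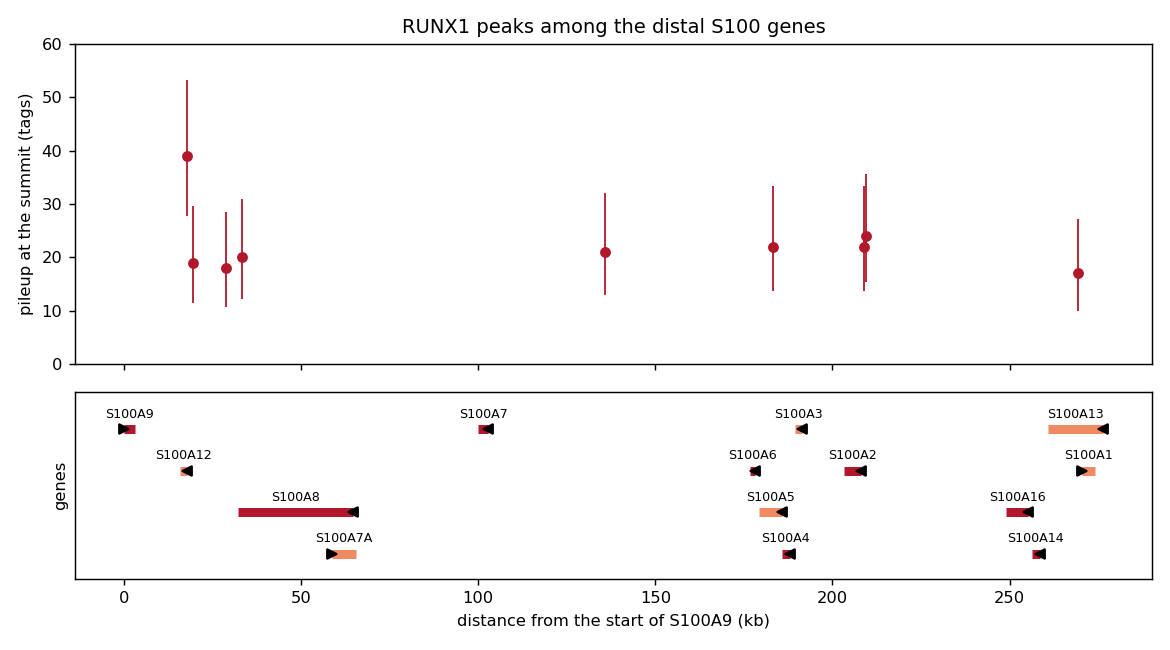
The upper panel shows the 9 peaks from S100A9 onward, with pileup in tags and exact 95% Poisson intervals, against distance in kb from the start of S100A9, and the lower panel shows S100 genes as bars (listed genes in red, others in orange) with an arrowhead at the 5′ end of each RefSeq interval. The 39-tag peak sits at S100A12, and none lies beside S100A7 or S100A7A. The S100A8 interval reaches far upstream of the start sites used here, which lie at its low end.

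A measure chosen after the peaks had been seen was the distance to a start site. Of the 10 listed genes, 4 had a summit within 1 kb of a start site (S100A10, S100A11, S100A8 and S100A2), where 4.87% of all protein-coding genes with a start in the table had one. The share was 3.91% of genes shorter than 11 kb and 9.24% of those between 150 and 160 Mb on chromosome 1. Adding the other S100 genes of the cluster, 7 of 16 had one, the further 3 being S100A12, S100A5 and S100A13. The distances were 10, 18, 68, 72, 182, 306 and 876 bases. The listed genes without one had their nearest summit 4.80 kb (S100A4), 5.01 kb (S100A6), 10.7 kb (S100A14), 13.9 kb (S100A16), 17.7 kb (S100A9) and 33.0 kb (S100A7) from a start. The 4 peaks at listed genes were weakly enriched, 4.17 times at S100A10, 3.42 at S100A11, 3.22 at S100A8 and 4.92 at S100A2. With a fold limit of 5 no listed gene would count, and the share of all genes under that limit is not given. The further 3 had 8.56 (S100A12), 5.86 (S100A5) and 3.85 (S100A13).

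**Figure D3:**
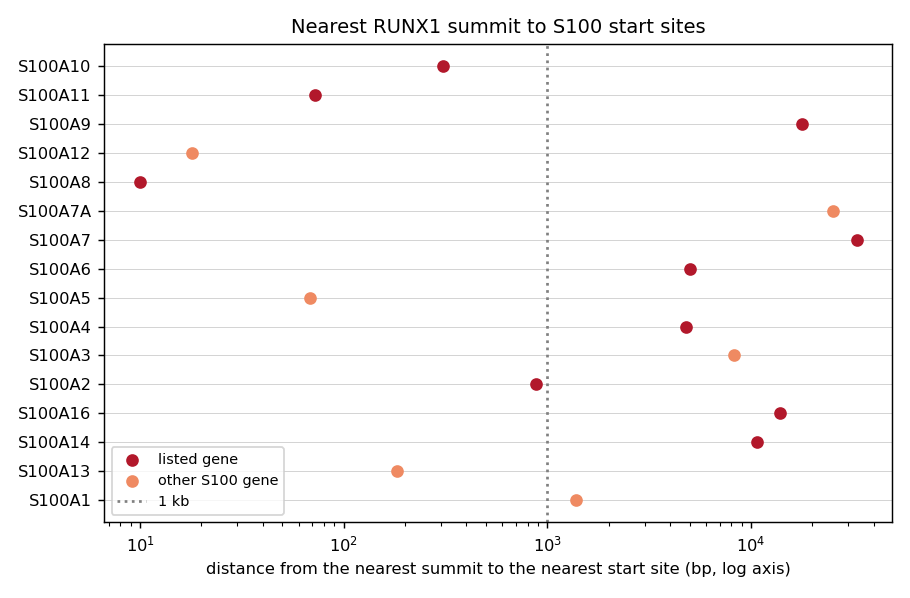
The distance in bp, on a log axis, from the nearest summit to the nearest start site is plotted for the 16 S100 genes of the cluster in their order along the chromosome. Of these, 7 lie left of the dotted line at 1 kb, between 10 bp (S100A8) and 876 bp (S100A2).

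Counted by peak, 10 of the 28 summits, or 35.7% (95% Wilson interval 20.7 to 54.2%), were within 1 kb of a start site of a protein-coding gene. In the whole list the share was 5.64%, and among the other 802 peaks of chromosome 1 past 140 Mb it was 7.23%. The stretch is rich in genes, and 7.50% of its bases (with 20 kb on either side) were within 1 kb of a start, against 1.69% of chromosome 1 past 140 Mb. Most of the 10 peaks lay below the median fold enrichment of the whole list, 5.06. Theirs were 8.56 at S100A12, 5.86 at S100A5, 4.92 at S100A2, 4.17 at S100A10 and 3.85 at S100A13. The rest had 3.57 (IVL), 3.42 (S100A11), 3.38 (LCE3A) and 3.22 (LORICRIN and S100A8). Under a fold limit of 5 only the S100A12 and S100A5 peaks would remain. The share of the whole list under that limit is not given. The weight of gene density and of weak peaks in the difference was not tested.

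Peaks were closer together among the distal S100 genes than in the epidermal part, a difference that was not tested. From S100A9 to S100A14, 258 kb held 8 peaks, or 31.0 per Mb (exact Poisson interval 13.4 to 61.0). The 1321 kb between S100A11 and S100A9 held 18, or 13.6 per Mb (8.08 to 21.5), the first of them being the S100A11 promoter peak, 72 bases past the gene. The intervals overlapped. In protein-coding genes per Mb the parts stood at 46.4 and 35.6.

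Peaks along the region were unevenly spaced, with long stretches left bare, most of them in the epidermal part. That part makes up 1321 of the 1633 kb of the stretch, and the spacing was not compared with random placement. Gaps between neighbouring summits had a median of 25.7 kb, and 8 of the 27 gaps were over 100 kb. These 8 added up to 1272 kb and held 46 protein-coding genes. The longest gap, 301 kb, covered SPRR4, SPRR1A, SPRR3, SPRR1B and all 6 SPRR2 genes measured, which make cross-linked precursors of the cornified envelope. In all, 2 of 11 SPRR genes (SPRR4 and SPRR5) and 2 of 19 LCE genes (LCE3A and LCE3B) had a summit within 20 kb, beside 25.4% of all protein-coding genes shorter than 11 kb. Many genes of these families are close copies of one another, and since the treatment of tags that match several places is not given, the lack of peaks there is uncertain and cannot be read as lack of binding. The LCE3A peak, with 21 tags (13 to 32.1), lay 207 bases inside that gene's start.

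Involucrin, a scaffold protein of the cornified envelope, had 4 summits within 5 kb, where no listed S100 gene had more than 2. Within 20 kb IVL and S100A8 had 4 each. The IVL summits lay at 3.04 kb, 2.30 kb and 132 bases before its start and 4.62 kb after it. Their pileups were 18, 23, 19 and 19 tags, with intervals that all overlapped. Fold enrichments ran from 3.55 to 4.84, and in the same order the input level was 1.98, 2.50, 2.09 and 1.42 times the genome background. The peak 132 bases before the start is the one printed above, and the centre of its TGTGGT was 7 bases from the summit. This peak was weak, with a −log10 q of 3.56, and 78.0% of all peaks had a higher one. Loricrin (LORICRIN), another envelope protein, had a summit 273 bases before its start, with 20 tags (12.2 to 30.9) and a fold enrichment of 3.22. The input level there was 2.50 times the genome background.

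Among the 7 S100-fused genes, which encode long filament-binding proteins of the epidermis with an S100 domain at one end, 3 had a summit within 20 kb (RPTN, HRNR and CRNN), a share close to the 35.6% of all protein-coding genes and the 44.1% between 150 and 160 Mb. FLG, the filaggrin gene, had its nearest summit 63.8 kb away. The tallest peak of the whole stretch lay 16.2 kb past the far end of CRNN (cornulin), in the gap between FLG2 and CRNN. It spanned chr1:152392817-152393298 and was 482 bp wide, with 53 tags (39.7 to 69.3), a fold enrichment of 11.5 and a −log10 q of 36.8. Of all peaks, 0.868% were taller and 1.06% wider. Its interval overlapped those of the S100A12 peak and of a 28-tag peak near SPRR5, and lay above those of the other 25 members. A second, lower peak of 20 tags stood 4.01 kb from it. At RPTN (repetin) 2 peaks lay 5.74 and 8.88 kb upstream, with 23 and 27 tags. The first had the highest input level of the 28, 3.76 times the genome background, and the lowest fold enrichment, 2.59. The 28-tag peak near SPRR5 (18.6 to 40.5) was 300 bp wide, and of the 28 peaks only those near CRNN and at S100A12 were taller or wider.

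**Figure D4:**
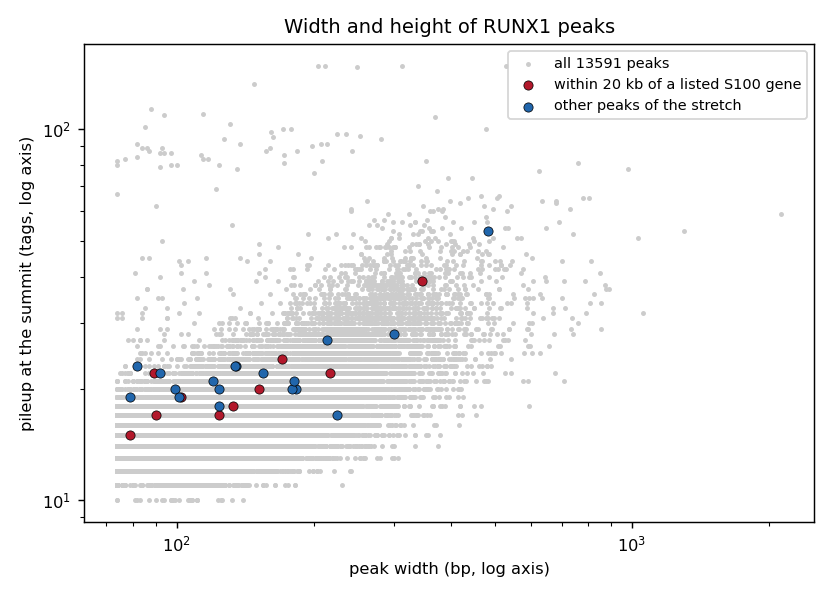
Pileup in tags is plotted against peak width in bp, both on log axes, for all 13591 peaks in grey, the peaks within 20 kb of a listed gene in red and the other members in blue. The members lie within the grey cloud, and only those near CRNN (482 bp, 53 tags) and at S100A12 (345 bp, 39 tags) reach its upper right.

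As a group the 28 peaks were of ordinary height. Their median pileup was 20.5 tags (range 15 to 53), compared with 18 in the whole list and 21 in the other peaks of chromosome 1 past 140 Mb. Their widths ranged from 79 to 482 bp, with a median of 133.5 bp against 153 bp and 150 bp. The median fold enrichment was 4.77, against 5.06 and 4.70. The input level, the local background recovered from pileup and fold enrichment, had a median of 1.67 times the genome background at the S100 peaks, 1.64 in the rest of chromosome 1 past 140 Mb and 1.11 in the whole list. The S100 peaks and their surroundings thus had a higher input level than the list as a whole, and its part in their heights was not tested.

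The stretch was densely bound for its length. It held 27 peaks, or 16.5 per Mb (10.9 to 24.1). In 65 other windows of equal length past 140 Mb the median was 11 peaks (0 to 38), and 3 windows held more and 1 as many. The stretch also held 61 protein-coding genes, more than any of those windows, where the median was 11. It had 0.443 peaks per gene, against 1.13 in the median window, and the part of gene density in this was not tested. The 4 other windows past 140 Mb with over 50 genes held 28 peaks for 55 genes, 14 for 53, 13 for 52 and 19 for 51.

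**Figure D5:**
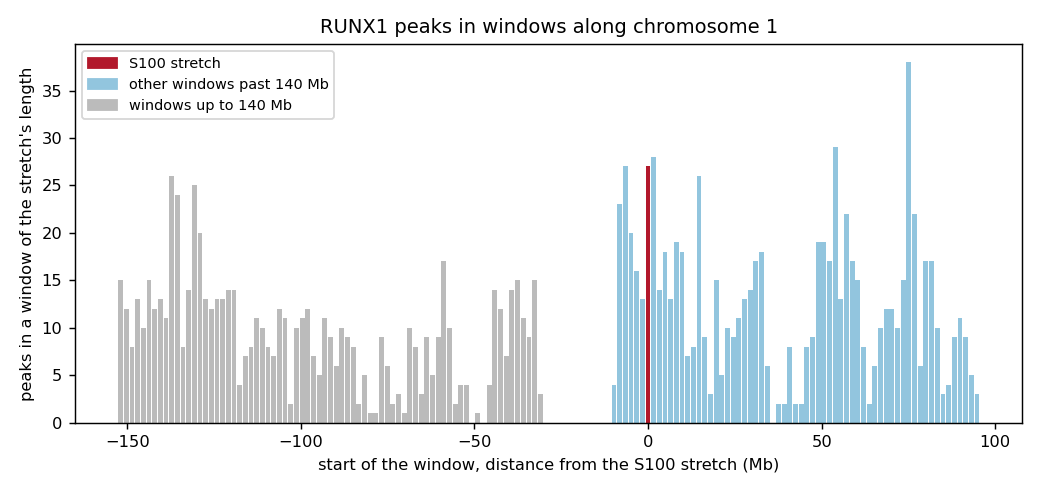
Bars give the number of peaks in windows of 1.63 Mb along chromosome 1, placed by distance in Mb from the S100 stretch (red, 27 peaks), with other windows past 140 Mb in blue and windows up to 140 Mb in grey. A blue window with 38 peaks is the highest, and the grey windows reach 26.

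Matches to the motifs were counted by gene family, with no test between families. TGTGGT stood in a promoter window of 3 of the 10 listed genes (S100A11, S100A9 and S100A2), and of 16 of the 59 protein-coding genes here with a window, or 27.1%. For all protein-coding genes the share was 14.5%, and of all windows 13.1% held it. TGCGGT was held by 4 of the 59 and by 11% of all. The AP-1 core was held by 20 of the 59, or 33.9%, against 8.04% of all, and by 6 of 7 S100-fused genes, 6 of 9 SPRR genes, 4 of 8 other envelope genes and 0 of 18 LCE genes. Among S100 genes it was held by 1 of the 10 listed (S100A2) and 3 of the 6 others of the cluster (S100A12, S100A3 and S100A5). Of the 7 peaks that reached into a window, 2 held TGTGGT there (IVL and S100A5), 0 held TGCGGT and 2 held the AP-1 core (IVL and S100A12). Of these 7, 4 lay wholly in a window. Only part of the others was searched: 17 of 124 bases at S100A10, 40 of 124 at LORICRIN and 190 of 345 at S100A12. A match is a description of the sequence only.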

How the data were processed

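RUNX1 ChIPseq and input DNA of MCF10A cells were compared by the authors with MACS 2.1.2 at a q limit of 0.05. Per the file headers, tags of 54 bp were extended to 74 bp, and duplicates beyond 1 tag at a position on each strand were dropped. The submitters' processing notes name Bowtie2 and hg38. The deposited pileup is a signal in tags, the deposited fold enrichment is a ratio to the local background after adding 1 to each, and p and q were deposited as −log10 values.

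Input level was recovered as (pileup + 1) divided by fold enrichment, minus 1, relative to a genome background of 2.20 tags. It stands for the local background, which MACS takes from windows of up to 10 kb, and not for the input tags at the summit. Genes and start sites came from the RefSeq tables (GRCh38.p14), which matched all 10 listed genes. Of 20056 protein-coding genes, 15843 had a start site. Python 3.11.15 with pandas 2.3.3 and scipy 1.17.1 was used, and peak assignment was tested on simulated data. The genes named are the listed ones, other S100 genes, epidermal families, annexins and receptors, and the gene nearest each peak. Members and lists were chosen with earlier results of these data known, and the TGCGGT and AP-1 searches after seeing them. The 1 kb distance to start sites and the 11 kb gene length were also chosen then. Alternatives were a stricter q (0.01), only peaks enriched at least 5 times, merging within 1 kb, overlap of any base, other distances, the nearest gene alone and other limits of the stretch.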

Additional observations from a re-analysis of the deposited data

How the results depend on the processing

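Of 26 alternatives over 4 results, 18 moved the value little, and 8 moved it by more than 1.5 times. With a fold enrichment of at least 5, the stretch held 10 peaks, or 6.12 per Mb, and 5 listed genes had a peak within 20 kb (S100A9, S100A8, S100A6, S100A4 and S100A2), by construction since weaker peaks are dropped. With the S100 ends alone there were 9 peaks, or 28.8 per Mb, in the shorter length. Listed genes with a peak fell from 9 to 5 with 5 kb on either side, where 24.7% of all protein-coding genes had one. The count was 1 with gene bodies alone and 4 when a peak counted for its nearest gene only. For these rules and the fold limit no share of all genes is given, so the counts are not read as high or low. The median pileup stayed between 20.5 and 23.5 tags. No paired analysis was possible because the series holds a single ChIP and a single input library, with no replicate numbers to pair. At pileups of 15 to 28 tags the Poisson intervals of most peaks overlap, so their order in height was not detectable at this depth.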

Other observations

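Outside the chromosome 1 cluster, S100P on chromosome 4, a gene of many carcinomas, had 1 peak within 20 kb, with its summit 4.86 kb upstream of the start (20 tags, 12.2 to 30.9, fold enrichment 6.09). S100Z on chromosome 5 had 2 within 20 kb, the nearest 7.46 kb from the gene and the best of 19 tags. S100B and S100G had 0, with their nearest summits 439 and 65.0 kb away.

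Genes of S100 partners and receptors on other chromosomes were also examined. ANXA2 on chromosome 15, which encodes the annexin that binds S100A10, had 4 peaks within 20 kb, 2 of them inside the gene. The tallest, at 60409241 to 60409464, had 27 tags (17.8 to 39.3), a fold enrichment of 8.74 and a −log10 q of 16.3. ANXA1, the partner of S100A11, had 0 peaks within 50 kb and its nearest summit was 172 kb away. AGER, a receptor for several S100 proteins, had 1 peak within 20 kb, 12 kb upstream of its start, with 22 tags (13.8 to 33.3). TLR4, a receptor for calprotectin, had 0, with the nearest summit 188 kb away.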
